A study of Mus musculus with 6 samples.

Results

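Igf1, Gdf3, Gdf15, Osm, Spp1, Hbegf, Pdgfa, Pdgfb, Gpnmb and Nampt encode factors that macrophages (MPs) release, or shed from their surface, in injured muscle. These 10 genes were chosen by name as secreted factors and not by a threshold on their values, and all 10 were present among the 13008 genes of the expression table. RNA-seq was performed on GFP+/F4/80+/Ly6C Low MPs sorted from hindlimb muscles of C57BL/6J mice aged 3 months, on day 5 after injury with cardiotoxin, a snake toxin that kills muscle fibers. The 3 Control samples carry the genotype label wild type, and the study describes these mice as Tg:LysMCre::R26 mTmG, in which Cre of the myeloid lineage switches on GFP. The 3 Cripto KO samples are labelled Tg:LysMCre::Cripto-/-, and by the same description carry floxed Cripto besides the Cre and the reporter. Under that description injury, sort, reporter and Cre were shared by both groups. Deletion of Cripto was, by the same account, limited to cells with LysMCre activity and not complete. Whether the samples share the Cre was not tested, and Lyz2, where the LysMCre allele sits, was high in Control replicate 2 alone.

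Ly6C Low MPs are the later MPs of an injury, which follow the inflammatory Ly6C High MPs and accompany the differentiation and growth of new fibers. IGF1 and GDF3 act on muscle precursors and fibers, GDF15 is a stress-induced hormone, OSM and HB-EGF signal to many stromal and epithelial cells, and the PDGFs drive the growth of fibroblasts and mural cells. Osteopontin (Spp1) and GPNMB bind integrins and other surface proteins, and NAMPT, an enzyme of NAD synthesis, also acts as an extracellular signal to muscle stem cells. Cripto is a membrane-bound co-receptor for members of the TGF-β family, GDF3 among them.

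None of the 10 factors differed between Control and Cripto KO MPs at an adjusted p under 0.05, by limma with Benjamini-Hochberg adjustment over all 13008 genes. At an unadjusted p under 0.05 by limma there was 1, Nampt. Over all genes 0.131% were called at the adjusted and 8.59% at the unadjusted threshold, so 1 of 10 lay near the background. The edgeR quasi-likelihood test and DESeq2 on recovered reads also called 0 of the 10, with 1 (edgeR) and 0 (DESeq2) at an unadjusted p under 0.05. Differences are given as log2(Control/Cripto KO), so that positive values mean more RNA in Control. The 10 differences ran from -0.16 (Igf1) to 0.26 (Hbegf), 5 above and 5 below 0, with a median of -0.003 against 0.011 over all genes. Their median absolute size was 0.097, against 0.121 over all genes. For 9 of the factors the 95% interval of the fold (Control over Cripto KO) lay between 0.756 and 1.48, and Gdf3, the exception, had an interval from 0.332 to 3.43. In sorted bulk RNA, fewer cells that make a factor and less RNA per cell cannot be told apart.

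**Figure D1:**
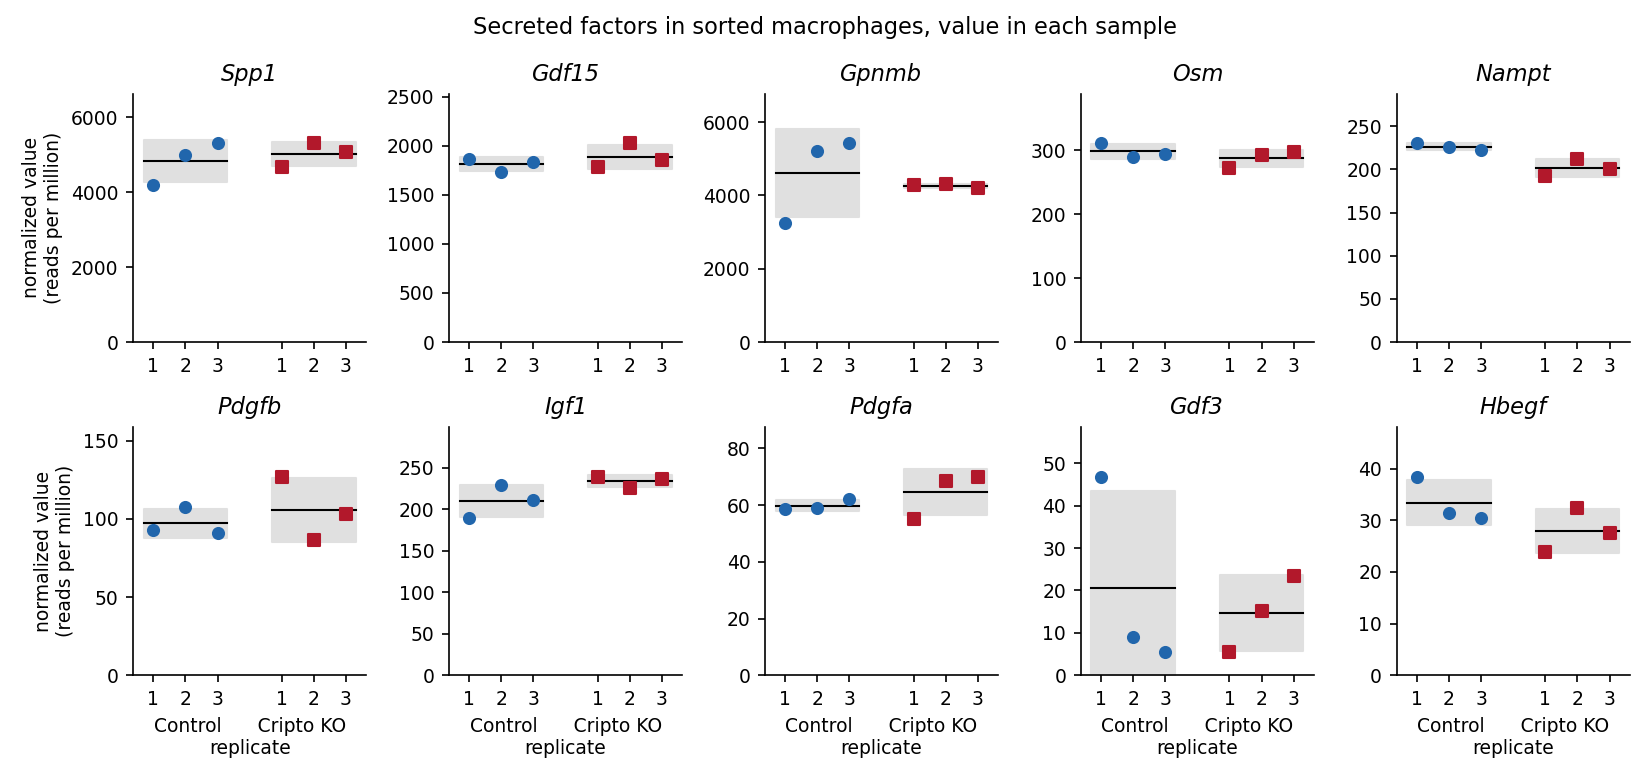
Normalized value (reads per 1000000, y axis from 0) of each of the 10 secreted factors in Control replicates 1 to 3 (blue circles) and Cripto KO replicates 1 to 3 (red squares), with the mean (line) and 1 SD on each side (grey band, n = 3). The 3 Control values of Nampt, 223 to 230.5, lie above the 3 Cripto KO values, 193 to 212, whereas the groups overlap for the other 9 factors and Gdf3 spreads from 5.56 to 46.9.

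In the deposited table a value is the read number plus 0.5, scaled to a normalized library of 1000000, and whole reads recovered from them summed to between 12688968 and 15659847 per sample. At this depth each factor had at least 68 reads in every sample, well above the 3 reads taken as the floor. The sorted cells carried the defining MP markers, with summed values of 13 such genes of 6322 to 6838 in Control and 6083 to 6682 in Cripto KO samples and with Cd68 (1602 and 1490.5 as group means), Adgre1, the gene of F4/80 (1230.4 and 1198), and Csf1r (1720.3 and 1676) as the most abundant per length. Of the 13, 0 were called by limma and 1 (Ptprc, the gene of CD45) had an unadjusted p under 0.05, against 8.59% of all genes. The groups did not overlap for 3 of the 13 or 23.1%, against 14.5% of all genes. These were Ptprc (474 to 502 in Control and 394 to 464 in Cripto KO samples), Ly6c2 (2.54 to 3.42 and 2.44 to 2.45) and Mrc1, the gene of CD206 (575 to 602 and 616 to 677). Mitochondrial genes took 0.725% to 0.807% of reads in Control and 1.01% to 1.08% in Cripto KO samples, without overlap, and the part of this difference in the results was not tested. Control replicate 1 had an Xist value of 171, where the other 5 samples had 0.114 to 0.885, and against the label male. Control replicate 2 had a Lyz2 value of 11066, against 21.2 to 28.3 elsewhere (the LysMCre allele sits in Lyz2). This set it apart from the other Control samples, and whether it carries the Cre as they do was not tested. The summed value of 14 fibroblast markers was 817 to 891 in Control and 968 to 1007 in Cripto KO samples, and that of 10 muscle markers was 41.1 to 79.4 in Control and 22.7 to 61.1 in Cripto KO samples. Cripto's own gene was not analysed here, and the genotype was not checked against it.

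Per length, Spp1 was the most abundant of the factors. Levels per kb of exon are the normalized values divided by the summed exon length of the gene, which allows genes to be compared with each other. Spp1, an extracellular matrix protein and cytokine, averaged 2986 per kb over the 6 samples (range 2548 to 3218), higher than 99.9% of the 12989 genes with a length. Gdf15 followed with 997 per kb (933 to 1094), then Gpnmb with 682 (497 to 833) and Osm with 129 (120 to 137).

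Nampt came next with 42.3 per kb (38.1 to 45.6). From there the levels lay close together. Pdgfb had 24.4 per kb (20.7 to 30.5), Igf1 22.4 (19.2 to 24.2) and Pdgfa 19.9 (17.7 to 22.5), and the ranges of these 3 overlapped. Gdf3, with 7.27 per kb (2.29 to 19.3), and Hbegf, with 6.35 (4.95 to 7.96), were lowest but still exceeded 66.2% and 63.4% of genes. The ranges of neighbours in this order did not overlap in 5 of 9 steps, from Spp1 down to Pdgfb, and overlapped in the 4 steps from Pdgfb to Hbegf. With the longest transcript as the length, 4 of 9 steps had no overlap. Gpnmb and Gdf15 then changed places, at 1200 and 1196 per kb with overlapping ranges, and so did Hbegf and Gdf3.

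**Figure D2:**
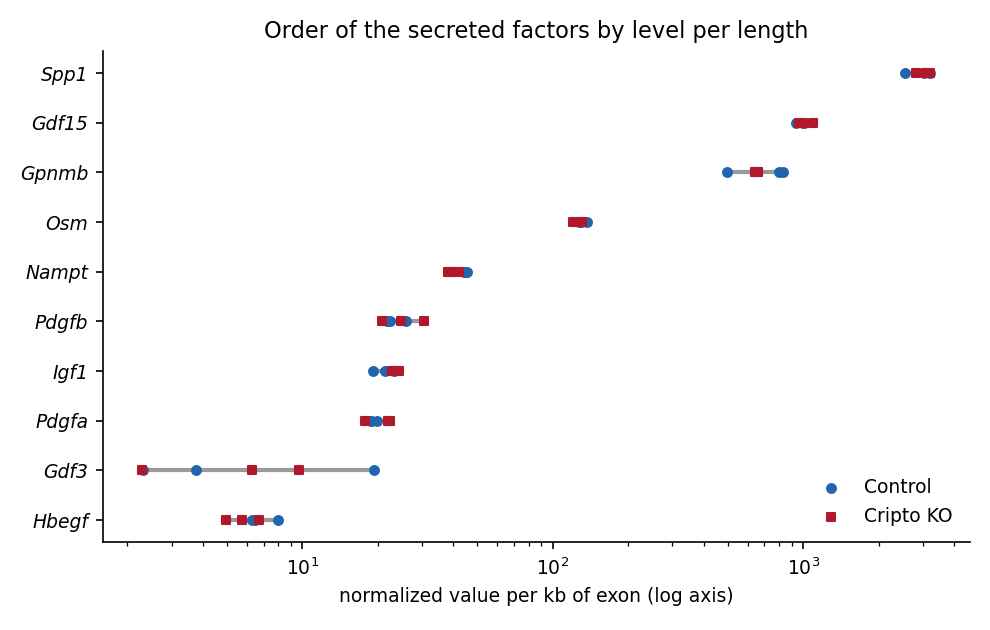
Level of the 10 secreted factors per kb of exon (x axis, log scale) in the 3 Control (blue circles) and 3 Cripto KO samples (red squares), ordered by the mean, with a grey line over the range of all 6 samples. The ranges of Spp1, Gdf15, Gpnmb, Osm, Nampt and Pdgfb do not overlap with those of their neighbours above, whereas those of Pdgfb, Igf1 and Pdgfa do and Gdf3 spans 2.29 to 19.3 per kb.

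Among the factors that act on muscle precursors, Igf1 had its lowest values in Control, though the groups overlapped and the test was not passed. Igf1 (ENSMUSG00000020053, GRCm38 chromosome 10, 87858265 to 87937042, plus strand) encodes insulin-like growth factor 1, which promotes growth of muscle fibers. Normalized values of Igf1 were 190.1, 229 and 211 in Control replicates 1 to 3, against 239.5, 226 and 236 in Cripto KO replicates 1 to 3. Control replicate 2 lay above Cripto KO replicate 2, while the remaining 2 Control values lay below all 3 Cripto KO values. The difference was -0.16 (95% interval -0.33 to 0.02), with an adjusted p of 0.637 by limma. Leaving out a single sample moved it between -0.22 and -0.09, the smaller size being without Control replicate 1. The larger was without Control replicate 2, the library with high Lyz2 (95% interval -0.40 to -0.04). There the groups did not overlap, with an unadjusted p of 0.0200 and an adjusted p of 0.585 by limma. The share of all genes without overlap was not counted with a sample left out. Fibroblasts also make Igf1. All 14 fibroblast markers measured had negative differences (median -0.24). Of the 14, 7 had an unadjusted p under 0.05 by limma, against 8.59% of all genes, and 0 an adjusted p under 0.05. The groups did not overlap for 5 of the 14 or 35.7%, against 14.5% of all genes. The most abundant per length were Gsn (285 in Control and 305 in Cripto KO, means), Col1a1 (195 and 231) and Col3a1 (147 and 182). Pdgfra, a defining fibroblast receptor, was at 0.405 to 0.694 in Control and 1.03 to 1.21 in Cripto KO samples. The part of fibroblast RNA in the Igf1 values was not tested.

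Gdf3 varied most among the samples. It encodes growth differentiation factor 3, a TGF-β family ligand that promotes fusion of muscle precursors, and lies on chromosome 6, 122605403 to 122610087, minus strand (ENSMUSG00000030117). The samples held 46.9, 9.12 and 5.59 (normalized values) in Control replicates 1 to 3, against 5.56, 15.2 and 23.4 in Cripto KO replicates 1 to 3. Control replicate 1 was the highest and Cripto KO replicate 1 the lowest, 8.43-fold apart, and each group held both high and low samples. For the other 9 factors the highest value was between 1.14 and 1.68 times the lowest. The difference was 0.09 (95% interval -1.59 to 1.78), with an adjusted p of 0.982 by limma. Without Control replicate 1, the library with Xist, it was -0.81, with an unadjusted p of 0.142 and an adjusted p of 0.610 by limma, and without Cripto KO replicate 1 it was -0.50. Sampling of reads is small beside this spread, since the reads of Gdf3 ran from 68 (Control replicate 3) to 636 (Control replicate 1).

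Because of this spread, the listed genes with a mean value of at least 1 were ordered by how closely their log2 values followed Gdf3 over the 6 samples, a choice made after the values were seen. The points of such a correlation are the same 6 libraries for every gene, so the values are a description. Of 188 genes, Il6, an inflammatory cytokine, was closest (Pearson r = 0.981, Spearman rho = 1), and r stayed at 0.981 without Control replicate 1. Il6 had normalized values of 12.4, 6.85 and 6.49 in Control against 6.06, 7.82 and 9.06 in Cripto KO replicates 1 to 3. Next were Nrg1, which encodes the EGF family ligand neuregulin 1 (r = 0.930, or 0.878 without Control replicate 1), and Thbs1, which encodes thrombospondin 1 (r = 0.894, or 0.823). Of the other factors Osm had the highest r with all 6 samples (0.823, or 0.637 without Control replicate 1), but over the 5 remaining samples Pdgfa was closer (0.860, against 0.332 with all 6). Without Control replicate 1 the order below Il6 changed, with Runx1 (0.951) and Cdh5 (0.900) among the genes that then passed Nrg1 and Thbs1. Like Gdf3, the genes Il6, Nrg1 and Thbs1 were highest in Control replicate 1, and their highest value was between 1.89 and 2.70 times the lowest. A choice by correlation with Gdf3 favors genes with the same highest sample, so this shared peak is no separate result.

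**Figure D3:**
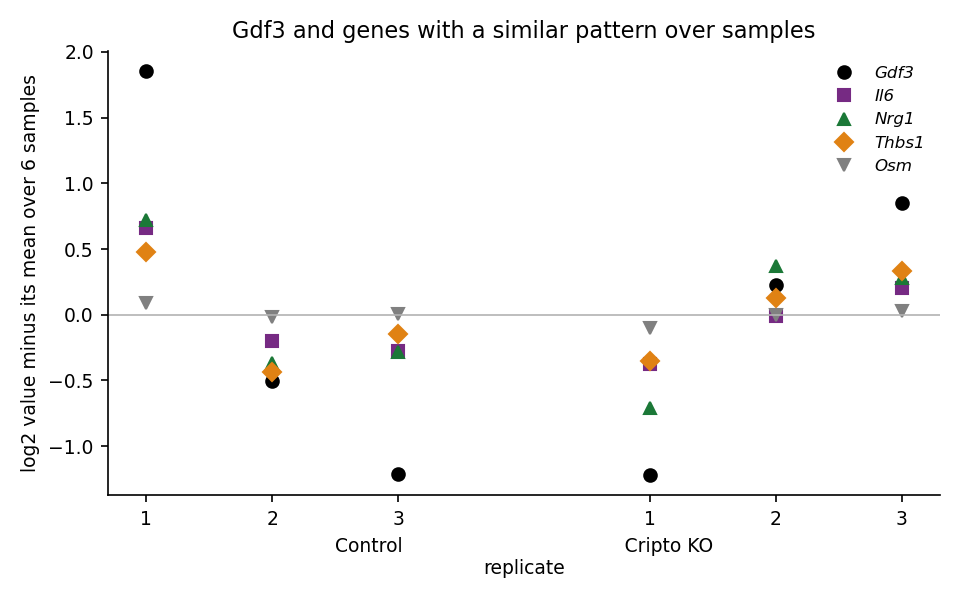
Log2 normalized value minus its mean over the 6 samples (y axis) of Gdf3 (black), the 3 listed genes with the highest correlation to it over all 6 samples, Il6, Nrg1 and Thbs1, and Osm (grey), in Control and Cripto KO replicates 1 to 3 (x axis). All 5 genes are highest in Control replicate 1, which a choice by correlation with Gdf3 favors. Gdf3 moves further than the others, 8.43-fold between the highest and lowest sample.

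Gdf15 and Nampt, both tied to metabolic stress, had narrow ranges. Gdf15 (ENSMUSG00000038508, chromosome 8, 70629393 to 70632456, minus strand) encodes growth differentiation factor 15, whose known receptor GFRAL acts in the brainstem. Normalized values of Gdf15 were 1861, 1728 and 1839 in Control against 1779.9, 2026 and 1849.9 in Cripto KO replicates 1 to 3. The groups overlapped, with the lowest value in Control and the highest in Cripto KO, and the difference was -0.06 (95% interval -0.24 to 0.13, adjusted p 0.879 by limma). Nampt (ENSMUSG00000020572, chromosome 12, 32819545 to 32853349, plus strand) encodes the rate-limiting enzyme of NAD salvage, which is also secreted. Nampt had normalized values of 230.5, 226 and 223 in Control against 193, 212 and 200.2 in Cripto KO replicates 1 to 3. All 3 Control values lay above all 3 Cripto KO values, and Nampt was the only factor of which this was true, 1 of 10 against 14.5% of all genes without overlap in either direction. The difference was 0.17 (95% interval 0.02 to 0.31), a fold of 1.12 (1.02 to 1.24), with an unadjusted p of 0.0266 and an adjusted p of 0.524 by limma. Leaving out a single sample gave differences of 0.13 to 0.20 with unadjusted p-values of 0.0192 to 0.0860 by limma. With 5 of the 6 samples left out in turn the unadjusted p rose above 0.05, and it was below only without Cripto KO replicate 2.

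Osm and the ligands of receptor tyrosine kinases had differences of both signs. Osm (ENSMUSG00000058755, chromosome 11, 4236420 to 4241026, plus strand) encodes oncostatin M, a cytokine of the IL-6 family. Osm had normalized values of 311, 289 and 294 in Control against 272, 293 and 298 in Cripto KO replicates 1 to 3, and it varied least of the 10 factors, with a coefficient of variation of 4.28% over the 6 samples. Apart from Control replicate 1 and Cripto KO replicate 1, its 4 values lay between 289 and 298, and the difference was 0.05 (95% interval -0.10 to 0.20, adjusted p 0.860 by limma).

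Hbegf (ENSMUSG00000024486, chromosome 18, minus strand) encodes heparin-binding EGF-like growth factor, which is shed from the membrane to activate the EGF receptor. In the order of the replicates, normalized values were 38.5, 31.4 and 30.5 in Control against 23.9, 32.5 and 27.6 in Cripto KO replicates 1 to 3. Cripto KO replicate 2 lay above 2 of the Control values, so the groups overlapped. Its difference was 0.26 (95% interval -0.04 to 0.56), the furthest from 0 of the 10 factors, with an adjusted p of 0.651 by limma. Without Control replicate 1 it was 0.16 (-0.14 to 0.45). Without Cripto KO replicate 2 it was 0.37 (0.06 to 0.68) and the groups did not overlap. There the unadjusted p was 0.0240 and the adjusted p 0.637 by limma, and the share of all genes without overlap was not counted.

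Pdgfa (ENSMUSG00000025856, chromosome 5, 138976014 to 138997370, minus strand) encodes the A chain of platelet-derived growth factor. Pdgfa had normalized values of 58.6, 58.8 and 62.1 in Control against 55.3, 68.3 and 70.1 in Cripto KO replicates 1 to 3. Cripto KO samples held both the lowest value and the highest ones, and the difference was -0.10 (95% interval -0.32 to 0.12, adjusted p 0.808 by limma). Pdgfa overlaps the antisense gene 6330403L08Rik over 2315 bp, and 23.3% of the words of 31 bases in its transcripts also occur in other genes. Since the library kit does not mark strand, reads of both genes cannot be told apart there. 6330403L08Rik had values of 7.77 to 13.7 and a difference of -0.43, with an unadjusted p of 0.0218 and an adjusted p of 0.512 by limma.

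Pdgfb (ENSMUSG00000000489, chromosome 15, 79995874 to 80014977, minus strand) encodes the B chain, which recruits mural cells to vessels. Normalized values of Pdgfb were 93.1, 108 and 90.8 in Control against 127, 86.3 and 103 in Cripto KO replicates 1 to 3. Again the Cripto KO samples held the lowest and the highest value, and the difference was -0.10 (95% interval -0.40 to 0.19, adjusted p 0.862 by limma). Markers of mural cells, a main target of PDGF-BB, were low, with summed values of 6 genes (Acta2, Rgs5 and Tagln the most abundant per length) of 39.8 to 51.2 in Control and 38.9 to 52.9 in Cripto KO samples, and 0 of the 6 were called by limma, with Acta2 at an unadjusted p under 0.05.

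Spp1 and Gpnmb had a larger SD in Control than in Cripto KO samples. This was also true of Igf1, Gdf3 and, narrowly, Hbegf, and the reverse held for Gdf15, Osm, Pdgfa, Pdgfb and Nampt. Spp1 (ENSMUSG00000029304, chromosome 5, 104435118 to 104441050, plus strand) encodes osteopontin, which binds integrins and CD44. Spp1 had normalized values of 4199, 4997 and 5298 in Control against 4657, 5303 and 5073 in Cripto KO replicates 1 to 3. Control replicate 1 was the lowest, and the remaining Control values lay within the Cripto KO range. The groups overlapped, with a difference of -0.06 (95% interval -0.32 to 0.21, adjusted p 0.922 by limma). Of the words of 31 bases in its transcripts, 14.3% also occur in the overlapping gene model Gm42793, which had values of 4.88 to 10.6.

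Gpnmb (ENSMUSG00000029816, chromosome 6, 49036546 to 49070929, plus strand) encodes glycoprotein NMB, a membrane protein of lipid-handling MPs with a shed ectodomain. Gpnmb had normalized values of 3236, 5199 and 5423 in Control against 4281, 4308 and 4194 in Cripto KO replicates 1 to 3. The 3 Cripto KO samples lay close together, between a low Control replicate 1 and a pair of high Control replicates. The difference was 0.08 (95% interval -0.33 to 0.49, adjusted p 0.932 by limma). Without Control replicate 1 the groups no longer overlapped, and the difference was 0.32 (95% interval 0.12 to 0.52). Its unadjusted p was 0.00549 and its adjusted p 0.275 by limma, the smallest adjusted p of any factor in any fit. The share of all genes without overlap was not counted with that sample left out. Of 15 other markers of lipid-handling MPs 0 were called by limma, with 2 at an unadjusted p under 0.05, against 8.59% of all genes. These were Lpl, which encodes lipoprotein lipase (456, 635 and 693 in Control, against 849, 844 and 871 in Cripto KO), and Ctsk, which encodes cathepsin K, with differences of -0.55 and -0.52. Apoe, Ctsd and Ctsb, the most abundant of the list per length, had differences of 0.01, 0.09 and 0.12 (adjusted p 0.853 to 0.993 by limma).

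**Figure D4:**
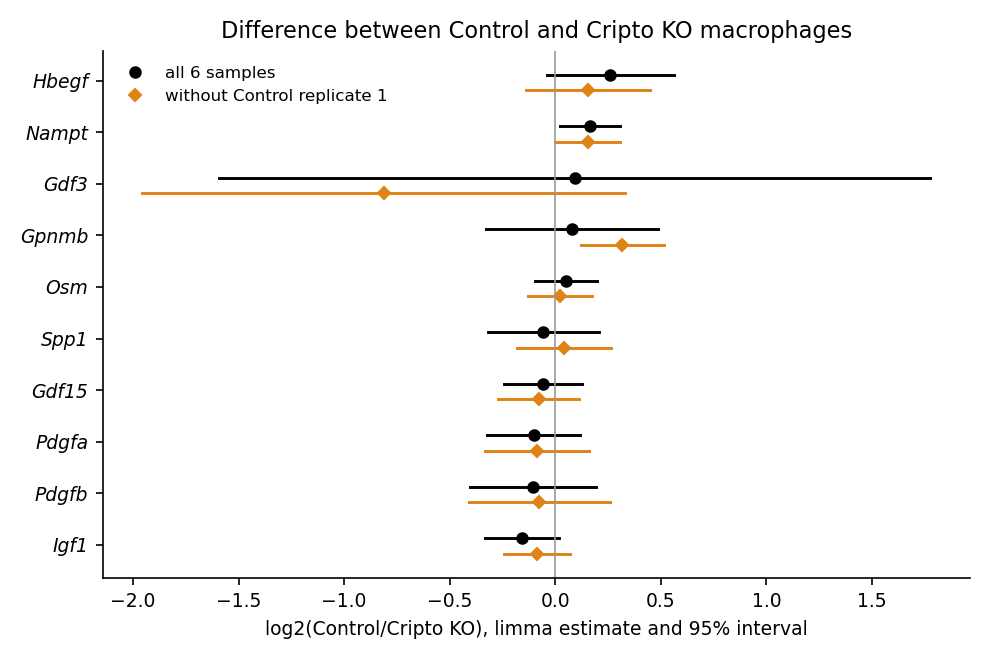
Difference between Control and Cripto KO MPs for the 10 secreted factors (x axis, log2(Control/Cripto KO) by limma, with its 95% interval), from all 6 samples (black circles) and without Control replicate 1 (orange diamonds). Every interval from all samples includes 0 except that of Nampt (0.02 to 0.31), and without Control replicate 1 that of Gpnmb excludes 0 (0.12 to 0.52) while the Gdf3 estimate moves from 0.09 to -0.81.

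Across the factors, 2 libraries supplied most of the extremes. Control replicate 1 held the highest value of Nampt, Hbegf, Gdf3 and Osm and the lowest of Igf1, Spp1 and Gpnmb, 7 of 10 factors, whereas it was highest or lowest for 40.3% of all genes. Cripto KO replicate 1 held the highest value of Igf1 and Pdgfb and the lowest of Nampt, Hbegf, Pdgfa, Gdf3 and Osm, also 7 of 10, against 38.3% of all genes. In the remaining 4 samples between 1 and 3 factors were at an extreme.

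The receptors, related ligands, processing enzymes, NAD enzymes, regulators and target genes of the factors were taken from 7 lists of 138 genes, of which 110 were measured. The lists were chosen with earlier results of these data known. Of the 110, 1 was called by limma, Cish, and 14 had an unadjusted p under 0.05 (8 higher and 6 lower in Control). Over all genes, the background for each list count below, 0.131% were called by limma and 8.59% had an unadjusted p under 0.05. The 3 Control and 3 Cripto KO values did not overlap for 17 genes or 15.5%, against 14.5% of all genes, and the median difference was 0.02.

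Cish (chromosome 9, 107296026 to 107302784) encodes a feedback inhibitor of cytokine signaling that is switched on by STAT5. Cish had normalized values of 28.5, 14.3 and 10.1 in Control against 2.25, 2.58 and 2.45 in Cripto KO replicates 1 to 3. The Control values were far above the Cripto KO values in all samples, with a difference of 2.73 (95% interval 1.99 to 3.46, adjusted p 0.0235 by limma). It was called by edgeR and DESeq2 too, and its adjusted p was above 0.05, up to 0.172 with voom weights, in 7 of 15 alternative fits. Among those were the fits without Control replicate 2 and without each Cripto KO replicate, where it lay between 0.0575 and 0.125. Among the other 15 target genes 1, Irs2, had an unadjusted p under 0.05, with values of 112 to 116 in Control and 96.5 to 103 in Cripto KO samples, a difference of 0.17 (adjusted p 0.517 by limma). Irs2 encodes an adaptor of the insulin and IGF1 receptors. Junb, Pim1 and Socs3, the most abundant targets per length and known targets of the OSM and other cytokine receptors, had differences of -0.06, 0.01 and -0.02 (adjusted p 0.869 to 0.984 by limma).

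**Figure D5:**
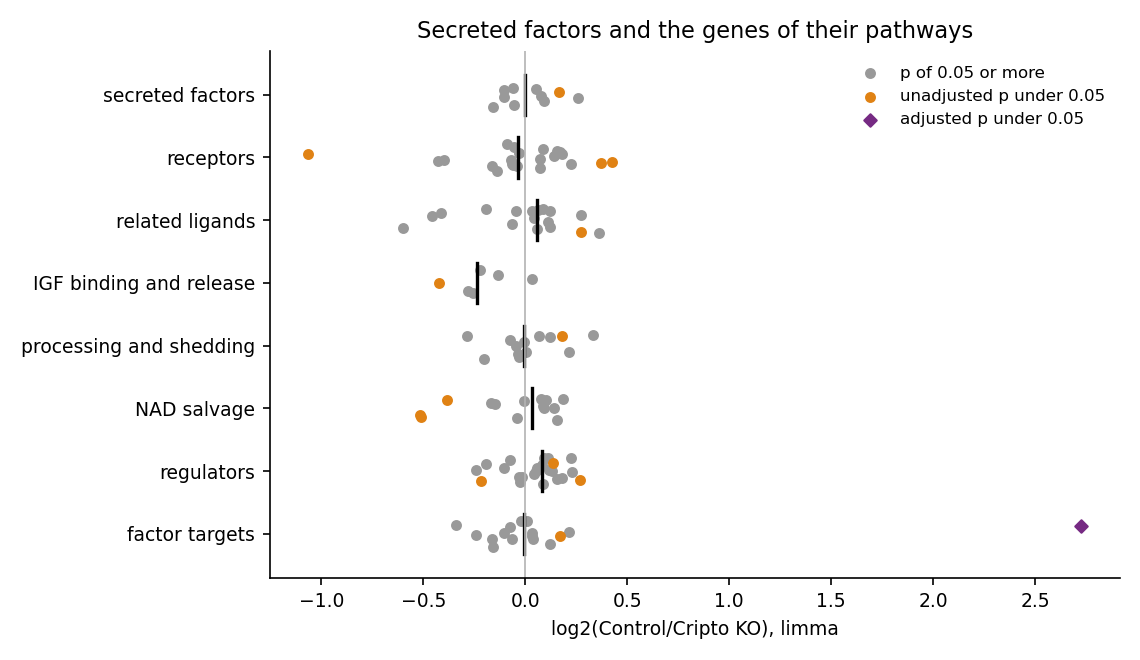
Difference between Control and Cripto KO MPs, log2(Control/Cripto KO) by limma (x axis), for the 10 secreted factors and the measured genes of the 7 lists (rows), with the median of each row as a vertical bar and the p of each gene as its color. Only Cish, at 2.73, has an adjusted p under 0.05, and the factors lie between -0.16 and 0.26.

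Of 26 receptors 22 were measured and 0 were called by limma, with 3 at an unadjusted p under 0.05. Itga9 encodes the α9 chain of an integrin that binds osteopontin. Its values were 102, 89.6 and 91.1 in Control replicates 1 to 3 and 70.01, 69.5 and 70.5 in the Cripto KO ones, so that the groups did not overlap, and the difference was 0.43 (95% interval 0.26 to 0.59, adjusted p 0.0915 by limma). With DESeq2 the adjusted p was 0.00581. Igf1r, the receptor of IGF1, had values of 11.5 to 14.8 in Control and 8.79 to 11.01 in Cripto KO samples, which did not overlap, and a difference of 0.37 (adjusted p 0.529 by limma). Pdgfra, whose values stand beside Igf1 above, had a difference of -1.06 (adjusted p 0.517 by limma). Per length Itgb5, Sdc4 and Itgb1 were the most abundant receptors at 144, 134 and 109 per kb, with differences of 0.18, 0.14 and 0.07, none called.

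The receptors of several factors were low in these MPs, a point picked after the values were seen. Osmr, the specific receptor chain of OSM, lay between 0.530 and 1.36, whereas its partner Il6st lay between 38.6 and 44.1. Egfr, the receptor of HB-EGF, lay between 1.41 and 1.88, and Pdgfrb between 2.16 and 4.54. Of the activin receptors through which GDF3 signals with Cripto, Acvr1b lay between 15.1 and 19.4 and Acvr2a between 7.30 and 10.1. Acvr2b was low, between 1.90 and 2.51. Gfral, Erbb2, Erbb4 and the activin receptor gene Acvr1c were listed but are not among the genes of the expression table, so they have no values here.

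Among 17 measured of 27 related ligands 0 were called by limma, and 1 had an unadjusted p under 0.05. This was Hgf, which encodes hepatocyte growth factor, an activator of muscle stem cells, with values of 19.0, 20.5 and 19.1 in Control against 16.9, 16.0 and 15.7 in Cripto KO replicates 1 to 3. Its groups did not overlap and the difference was 0.27 (95% interval 0.05 to 0.49, adjusted p 0.510 by limma). The most abundant per length were Grn (progranulin), Vegfa and Vegfb, with differences of 0.12, -0.04 and 0.06. Vegfa, the main vessel growth factor, was at 512 in Control replicate 1, and the other samples had 211 to 373.

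Of the genes that bind IGF1 or release it, 6 of 13 were measured and 0 were called by limma. Htra1, a protease that cuts IGF-binding proteins, had an unadjusted p under 0.05, with values of 10.2 to 12.1 in Control and 12.8 to 16.8 in Cripto KO samples and a difference of -0.42 (adjusted p 0.494 by limma). Igfbp4, Igfbp7 and Htra1 were the most abundant at 66.4, 22.6 and 4.62 per kb, the first with a difference of 0.03 and Igfbp7 with -0.26. Among 13 measured of 15 genes for processing and shedding, 0 were called, and Adam10, a sheddase of membrane proteins, had a difference of 0.18 at an unadjusted p of 0.0302 (adjusted p 0.532 by limma). Thbs1, Plau and Adam8 were the most abundant per length there, with differences of -0.07, 0.21 and -0.03.

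Around Nampt, 14 of 17 genes of NAD salvage were measured and 0 were called by limma. At an unadjusted p under 0.05 by limma there were 3 of 14, against 8.59% of all genes. These 3 were lower in Control, whereas Nampt was higher. The list as a whole had no common sign, with 7 differences above 0, 7 below and a median of 0.04. Bst1, an ectoenzyme that uses NAD, had values of 39.2, 31.1 and 36.03 in Control against 47.7, 45.0 and 45.7 in Cripto KO replicates 1 to 3, without overlap and with a difference of -0.38 (adjusted p 0.376 by limma). Nt5e (CD73) and Nadsyn1 (NAD synthetase) were low, with Control means of 3.01 and 4.09, below those of 4.23 and 5.71 in Cripto KO samples. The most abundant per length, Nadk, Parp1 and Cd38, had differences of 0.08, -0.04 and -0.17.

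All 23 regulators were measured and 0 were called by limma, with 3 at an unadjusted p under 0.05. Cdkn1a, which encodes the cell cycle inhibitor p21, had a difference of 0.27, and its groups, with means of 704 in Control and 586 in Cripto KO samples, overlapped. Pparg, a nuclear receptor known to control Gdf3 in repair MPs, had values of 30.6 to 34.1 in Control and 35.5 to 41.7 in Cripto KO samples and a difference of -0.22 (adjusted p 0.559 by limma). Stat6, the transcription factor of IL-4 and IL-13 signaling, had a difference of 0.14 (adjusted p 0.571 by limma). Cebpb, the most abundant per length, had a difference of 0.06.

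Markers of other cells in the sort were low apart from those of fibroblasts. Of 10 endothelial markers 0 were called by limma and 1 had an unadjusted p under 0.05, Tie1, with summed values of 63.8 to 76.1 in Control and 70.4 to 76.8 in Cripto KO samples and Pecam1, Cdh5 and Cldn5 the most abundant per length. Of 9 measured neutrophil markers, 4 (S100a9, Ngp, Camp and Retnlg) were at the floor in all 6 samples, and Mmp9 was called, with values of 15.2 to 22.4 in Control and 39.3 to 45.6 in Cripto KO samples and a difference of -1.10 (adjusted p 0.0313 by limma). Csf3r and Mmp8, with Mmp9 the most abundant of that list per length, had differences of 0.08 and -0.12. Of 12 lymphocyte markers 4 were measured, 2 of them at the floor, and 0 were called, with 1, Cd4, at an unadjusted p under 0.05 (difference 0.29). Among 10 measured muscle markers 0 were called by limma, and the median difference was 0.58. At an unadjusted p under 0.05 by limma there were 6 (5 higher and 1 lower in Control), against 8.59% of all genes. The groups did not overlap for 1 of the 10, against 14.5% of all genes. This was Myh4, a myosin of fast fibers (means of 10.5 in Control and 2.18 in Cripto KO samples). Acta1, Tnnc2 and Mylpf were the most abundant of them per length. The part of these cells in the values of the 10 factors was not tested.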

How the data were processed

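RNA from GFP+/F4/80+/Ly6C Low MPs of 3 Control and 3 Cripto KO samples was sequenced by the authors on an Illumina HiSeq instrument after library preparation with a NEBNext Ultra kit. The authors trimmed reads with Cutadapt (version 1.7.1, reads under 30 bp discarded), quantified them with RSEM (version 1.2.20) on the mouse transcriptome (GRCm38, release 91) and normalized them with LIMMA. The deposited signal is normalized, with 1 value for each gene in each sample. Each equals the reads plus 0.5 per 1000000 of a normalized library size, and whole reads were recovered from 100% of 78048 values within 0.01 read. RSEM estimates can hold fractions of reads, and the table was evidently made from whole ones. They summed to 14141773, 13717340 and 12688968 in Control replicates 1 to 3 and to 15659847, 14691843 and 14633880 in Cripto KO replicates 1 to 3. A gene with at most 3 reads was taken as at the floor, and such limits cover counting error only.

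Groups were taken from the genotype label. The main test was limma (version 3.58.1, R 4.3.3) with a variance trend on log2 values of all 13008 genes without a pseudocount, with Benjamini-Hochberg adjustment. It called 17 genes in all. The methods of the study state LIMMA normalization for these data. Alternatives on recovered reads were edgeR (version 4.0.16, quasi-likelihood test with TMM), DESeq2 (version 1.42.0) and voom weights. Further alternatives were quantile normalization, median centring, a filter on mean values under 1, and a pseudocount of either 0.5 or 1. The replicate number as a block, and fits that left out 1 sample, were also used. Only limma, with a pseudocount of 0.5, and edgeR were tried on simulated counts, with 200 changed genes of 13008. For changes of 1.5-fold, 2-fold and 4-fold, limma recovered 37.5%, 86.0% and 99.5%, with 4, 7 and 18 false calls. In the same order edgeR recovered 45.0%, 88.0% and 99.5%, with 5, 9 and 25 false calls. The 10 factors and the 15 gene lists were chosen with earlier results of these data known. Named were all 10 factors, the genes of each pathway list with an unadjusted p under 0.05 (at most 5) and its 3 most abundant per length, and in marker lists the 3 most abundant per length and markers without overlap; other genes named were chosen after their values were seen. A gene that this rule would name is not reported here. Positions, lengths and shared words of 31 bases came from GENCODE mouse release M21 on GRCm38, which placed 12989 genes. Where a symbol had several identifiers the one with the highest mean was used. The labels do not state that the samples of a group came from separate mice, and the p-values measure the spread between these samples, which may be technical in part. Figures were drawn with matplotlib 3.10.9, and tables were made with pandas 2.3.3, scipy 1.17.1 and numpy 2.4.6 in Python 3.11.15.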

Additional observations from a re-analysis of the deposited data

How the results depend on the processing

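Of 150 alternative fits of the 10 factors, 144 kept the direction and none gave an adjusted p under 0.05 (smallest 0.275, by limma without Control replicate 1). The other 6, all with a sample left out, reversed the sign. Gdf3 went from 0.09 to -0.81 without Control replicate 1 and to -0.50 without Cripto KO replicate 1, Spp1 from -0.06 to 0.040 without Control replicate 1, Pdgfb from -0.10 to 0.039 without Cripto KO replicate 1, and Gpnmb from 0.08 to -0.024 without Control replicate 2 and to -0.055 without Control replicate 3. Over the 6 samples left out in turn, Gdf3 ran from -0.81 to 0.72, Spp1 from -0.13 to 0.040, Pdgfb from -0.24 to 0.039 and Gpnmb from -0.055 to 0.32. The number of factors whose groups did not overlap was 1, and 2 with median centring (Igf1 and Nampt). Without a sample it was between 1 and 3, and Nampt was always among them. The share of all genes without overlap, 14.5%, was counted for the main values of all 6 samples only. Groups of fewer samples separate more easily. The number of pathway genes called was 1 (Cish), 0 with quantile normalization, with voom weights and with a replicate block, 2 with DESeq2 (Cish and Itga9), and between 0 and 1 without a sample. The cause of these moves was not tested.

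Deviations of same-numbered samples from their group means correlated at -0.21, -0.0052 and -2.5e-05. With 3 samples per group, these values cannot tell whether the replicate numbers paired the samples. A replicate block called 0 of the 10 factors and 0 of the 110 pathway genes, and gave Nampt the same difference with an unadjusted p of 0.0548 by limma.

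With 3 samples per group the intervals of the factors leave room for folds of up to 1.48 in 9 of them, and up to 3.43 in Gdf3.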
